A study of Mus musculus with 4 samples.

Results

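The Hes and Hey repressors and the Fringe glycosyltransferases of the Notch pathway were followed in mouse embryonic stem (ES) cells that were differentiated and sorted into 2 fractions. The set comprised 10 genes: 4 Hes genes (Hes1, Hes5, Hes6 and Hes7), 3 Hey genes (Hey1, Hey2 and Heyl) and 3 Fringe genes (Lfng, Mfng and Rfng). Every non-control probe whose accession maps to one of these symbols was taken, which gave 12 probes among 55681 on the array. The cells of both fractions were EB5 ES cells into which a Venus fluorescent reporter of Hoxb6 had been introduced, differentiated for 6 days on OP9 stromal feeder cells. Sorting by Flk-1 antibody staining and by the reporter gave a Flk-1+ Venus-positive and a Flk-1+ Venus-negative fraction, each hybridised to 2 single-colour Agilent arrays. Both fractions thus shared the ES line, the reporter, the feeder cells, the day and the selection for Flk-1. Whether the line is a single clone and whether replicates came from separate cultures are not given in the sources used here, so a p-value here covers the spread among these 4 arrays alone, part or all of which may be technical.

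Notch receptors are cleaved when a Delta or Jagged ligand on a neighbouring cell binds them, and the released intracellular domain joins the DNA-binding protein RBPJ to switch on target genes. Hes and Hey genes are the classical targets and encode basic helix-loop-helix repressors. Fringe enzymes add a sugar to the receptor and so alter which ligands it answers to. In embryonic mesoderm the pathway is known for arterial specification, for heart valve and blood development and for the segmentation clock of the presomitic mesoderm.

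Signals are given as the processed signal of a probe divided by its array's 75th percentile (normalised signal), and changes as log2 of Venus-positive over Venus-negative, with the moderated standard error (SE) of limma. The 75th percentile lay at a processed signal of 347 to 429, and between 50.7% and 53.0% of non-control spots were well above background on each array. Levels of different probes are not set against each other, since probes differ in brightness. The 4 arrays lay on 1 slide. The position given in the file headers puts both Venus-negative arrays in column 2 and both Venus-positive arrays in column 3, so slide column and fraction cannot be told apart in any comparison here. The slide row went with the replicate number. The sort markers had these values: Kdr, the gene of Flk-1, was at 52.6 and 46.9 in Venus-negative and 66.6 and 67.9 in Venus-positive cells (adjusted p = 0.138 in limma), and Hoxb6 at 2.34 and 1.97 against 3.99 and 4.71 (2.02-fold, adjusted p = 0.0716 in limma).

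The comparison asks whether reporter activity among Flk-1+ cells goes with a difference in these genes. Of the 10 genes, 9 passed the filter on dim probes and 0 were called at an adjusted p under 0.05 in limma, against 2.83% of the 13925 named genes tested. The 3 largest changes were those of Mfng (2.54-fold higher in Venus-positive cells), Hey2 (1.98-fold higher) and Lfng (1.93-fold lower), which were also the 3 members at an unadjusted p under 0.05, against 26% of named genes. The same 3 genes had fractions that did not overlap, as did 61.7% of named genes. The median size of the log2 change was 0.28 over the 9 members and 0.23 over all named genes tested. The replicates of the members were further apart in the median. The median difference between replicates was 0.46 on the log2 scale in the Venus-negative fraction and 0.66 in the other, against 0.17 and 0.15 over all named genes tested. This did not hold for each member: Hey2 lay below the gene median in the Venus-negative fraction, and Hes7 and Rfng did in the Venus-positive fraction.

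**Figure D1:**
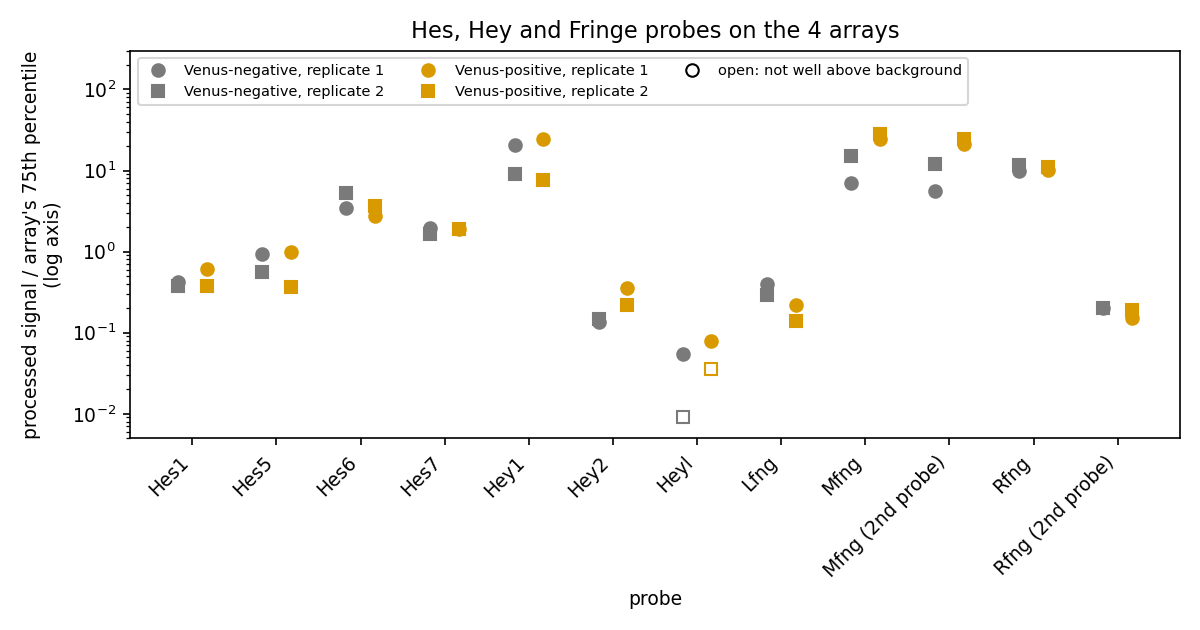
Normalised signal (processed signal over the array's 75th percentile, log axis) of the 12 probes on each array; grey marks Venus-negative and orange Venus-positive cells, circles replicate 1 and squares replicate 2, and open symbols signals not well above background. Mfng on both probes and Hey2 lie higher and Lfng lower in both Venus-positive arrays, whereas the replicates of Hey1 lie far apart in each fraction.

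Among the Fringe genes, Mfng had the largest change of the set. Its brighter probe gave a normalised signal of 6.99 and 15.1 on the Venus-negative arrays and of 24.2 and 28.3 on the Venus-positive arrays. Both Venus-positive values were above both Venus-negative values, but the Venus-negative replicates themselves were 2.17-fold apart. The log2 change of 1.35 ± 0.42 SE (n = 2 per fraction, 95% interval 0.15 to 2.55) did not pass in limma (adjusted p = 0.182). A second Mfng probe gave 5.59 and 12.1 against 21.4 and 24.4, a log2 change of 1.47 ± 0.42 SE (adjusted p = 0.154 in limma at the level of probes), so both probes showed the same order of the 4 arrays. The sum of the endothelial markers had that order as well, as did 8 of the 12 markers singly. The share of named genes with that order was not computed, so the 8 are not read further. Fractions overlapped for 1 of the 12, Emcn, and did not overlap for 61.7% of named genes. The summed normalised signal of the 12 markers was 212 and 259 in Venus-negative and 460 and 536 in Venus-positive cells. Each marker was well above background on all 4 arrays. Egfl7, named after its values were seen, made up the largest share of that sum (138 and 162 against 222 and 269). Of the 12, 4 were called higher and 0 lower, against 0.984% and 1.85% of named genes. The part of endothelial cells in the Mfng difference was not tested. In these bulk samples more cells of a type and more RNA per cell cannot be told apart.

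Lfng, which in the presomitic mesoderm is itself a cycling clock gene, had the opposite direction to Mfng. Its normalised signal was 0.398 and 0.290 in Venus-negative and 0.221 and 0.140 in Venus-positive cells. The fractions did not overlap, and replicate 1 was above replicate 2 in each. The log2 change was -0.95 ± 0.31 SE (95% interval -1.82 to -0.08, adjusted p = 0.187 in limma). It was -0.85 between the replicate 1 arrays and -1.05 between the replicate 2 arrays. Of 10 paraxial mesoderm markers, 8 were tested, with 2 called lower and 0 higher, against 1.85% and 0.984% of named genes. Their summed normalised signal was 17.5 and 15.9 in Venus-negative against 7.14 and 5.94 in Venus-positive cells. Most of that difference was Tbx6: without it the sums were 5.81 and 6.04 against 5.05 and 4.99. The median log2 change of the 8 markers was -0.20, and 3 of them were on the higher side. Meox1 and Tbx18, which mark somites, did not pass the filter on dim probes. The part of paraxial cells in the Lfng difference was not tested.

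Rfng, the third Fringe enzyme, had nearly the same signal on every array: 10.003 and 11.8 in Venus-negative and 10.2 and 11.0 in Venus-positive cells. The log2 change was -0.04 ± 0.13 SE (adjusted p = 0.890 in limma), and the 95% interval of -0.41 to 0.34 was the second narrowest among the members. A second, dimmer Rfng probe gave 0.2043 and 0.1996 against 0.1499 and 0.1916, a log2 change of -0.25 ± 0.16 SE (adjusted p = 0.407 in limma at the level of probes). On that probe the fractions did not overlap, whereas on the brighter one they did.

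**Figure D2:**
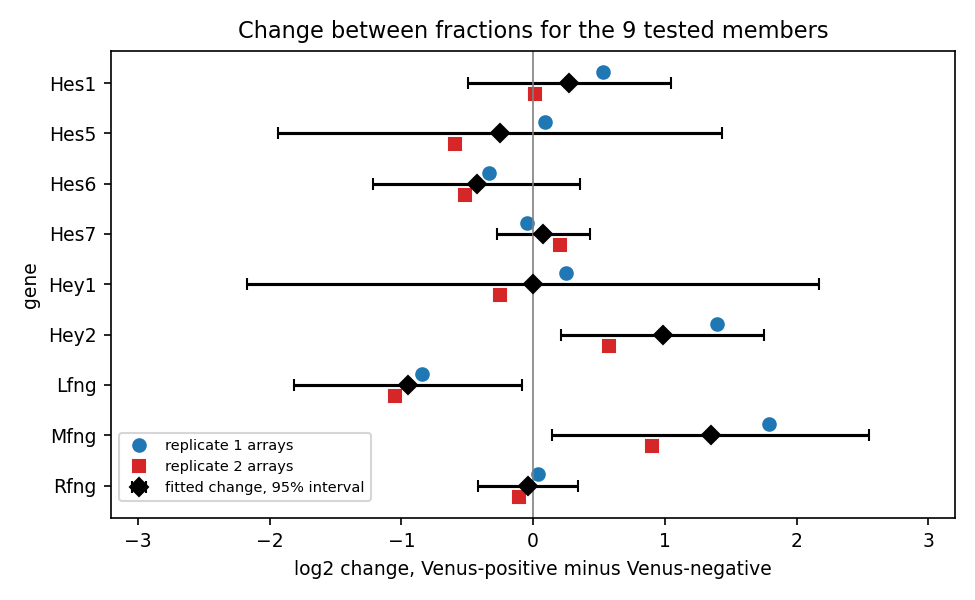
Log2 change (Venus-positive minus Venus-negative) of the 9 tested genes; diamonds with bars are the fitted change and its 95% interval, circles the difference between the replicate 1 arrays and squares that between the replicate 2 arrays. The intervals of Hey2, Lfng and Mfng leave out 0 before adjustment, and that of Hey1 is the widest, from -2.17 to 2.17.

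Of the Hey genes, known from arteries and from the heart, Hey2 was higher in Venus-positive cells on a dim probe. Its normalised signal was 0.135 and 0.147 in Venus-negative and 0.354 and 0.219 in Venus-positive cells. The Venus-negative replicates were close to each other, and the Venus-positive ones were 1.62-fold apart. The log2 change was 0.98 ± 0.27 SE (95% interval 0.21 to 1.76, adjusted p = 0.152 in limma), and it was 0.54 with model-based background correction (normexp); the same correction gave -0.61 for Lfng and 1.32 for Mfng. Of the 12 cardiac markers, all tested, 10 had lower and 2 had higher means in Venus-positive cells. Their summed normalised signal was 8.32 and 6.87 in Venus-negative and 3.51 and 2.07 in Venus-positive cells. Of these markers, 1 was called lower and 0 higher, against 1.85% and 0.984% of named genes. The called gene was Myl7, which, like Tbx20, was well above background in Venus-negative cells only. Tbx5 was well above background on both Venus-negative arrays but on only 1 Venus-positive array. Myl7, Tbx20 and Tbx5, named after their values were seen, thus entered the test only through the fraction where they were high. The Venus-positive values of Myl7 and Tbx20 lay near background. Actc1, cardiac actin, made up the largest share of the sum (4.43 and 2.21 against 1.83 and 0.578), and the 2 markers on the higher side were Mef2c (log2 change 1.27) and Tnnt2 (0.89), named after their values were seen.

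Hey1 had the same average level in both fractions and the largest spread between replicates of the 9 tested genes. Its normalised signal was 20.8 and 9.02 in Venus-negative and 24.8 and 7.57 in Venus-positive cells. The arrays numbered 1 were high and those numbered 2 low in each fraction, by 2.31-fold in the Venus-negative and 3.27-fold in the Venus-positive fraction. The fitted log2 change between fractions was -0.00043 ± 0.76 SE, with a 95% interval from -2.17 to 2.17 (adjusted p = 0.9999 in limma). Between the replicate 1 arrays alone the change was 0.25, and between the replicate 2 arrays -0.25.

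Heyl, the third Hey gene and in mice known from vascular smooth muscle, was near the limit of measurement. Its processed signal, before scaling, was 21.6 and 3.15 in Venus-negative and 33.8 and 14.1 in Venus-positive cells. It was well above background on 1 array of each fraction, the replicate 1 array in both. Heyl therefore did not enter the test. With dim probes kept, its log2 change was 1.24 ± 1.09 SE (adjusted p = 0.517 in limma).

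None of the 4 Hes genes had fractions that stood apart. Hes1, the Hes gene most widely used as a Notch readout, had a normalised signal of 0.422 and 0.376 in Venus-negative and 0.610 and 0.380 in Venus-positive cells. One Venus-positive array was thus high and the other lay among the Venus-negative values. The log2 change was 0.28 ± 0.27 SE (95% interval -0.49 to 1.04, adjusted p = 0.593 in limma).

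Hes5, a Notch target best known from neural progenitors, resembled Hey1 in its replicates. Its normalised signal was 0.934 and 0.554 in Venus-negative and 0.992 and 0.368 in Venus-positive cells. Replicate 1 was the higher in both fractions, 1.69-fold and 2.69-fold. The log2 change between fractions was -0.25 ± 0.59 SE (95% interval -1.94 to 1.43, adjusted p = 0.833 in limma). Of 12 neural markers, 7 were tested, 2 of them called lower and 0 higher, against 1.85% and 0.984% of named genes. Their summed normalised signals were 7.98 and 7.85 in Venus-negative and 7.88 and 9.71 in Venus-positive cells. Nes, named after its values were seen, made up most of that sum (4.04 and 4.64 against 7.05 and 9.16). Of the 7 markers, 5 had lower and 2 had higher means in Venus-positive cells. Pax6, Neurog1, Neurog2, Neurod1 and Olig2 did not pass the filter on dim probes.

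Hes6, a family member that opposes Hes1 and favours neuronal differentiation, was at 3.48 and 5.25 in Venus-negative and 2.76 and 3.66 in Venus-positive cells. Its replicates ran against those of Hes5 and Hey1, with replicate 2 the higher in both fractions. The log2 change was -0.43 ± 0.28 SE (95% interval -1.21 to 0.36, adjusted p = 0.424 in limma).

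Hes7, the oscillating repressor of the segmentation clock, was at 1.95 and 1.67 in Venus-negative and 1.89 and 1.93 in Venus-positive cells. The Venus-positive values lay between the Venus-negative ones. The log2 change was 0.08 ± 0.12 SE (adjusted p = 0.744 in limma), and its 95% interval of -0.28 to 0.43 was the narrowest of the members. The interval of Hes7 leaves out the fitted change of Lfng, which belongs to the same clock. It overlaps the Lfng interval of -1.82 to -0.08, however, and the difference between the 2 genes was not tested.

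**Figure D3:**
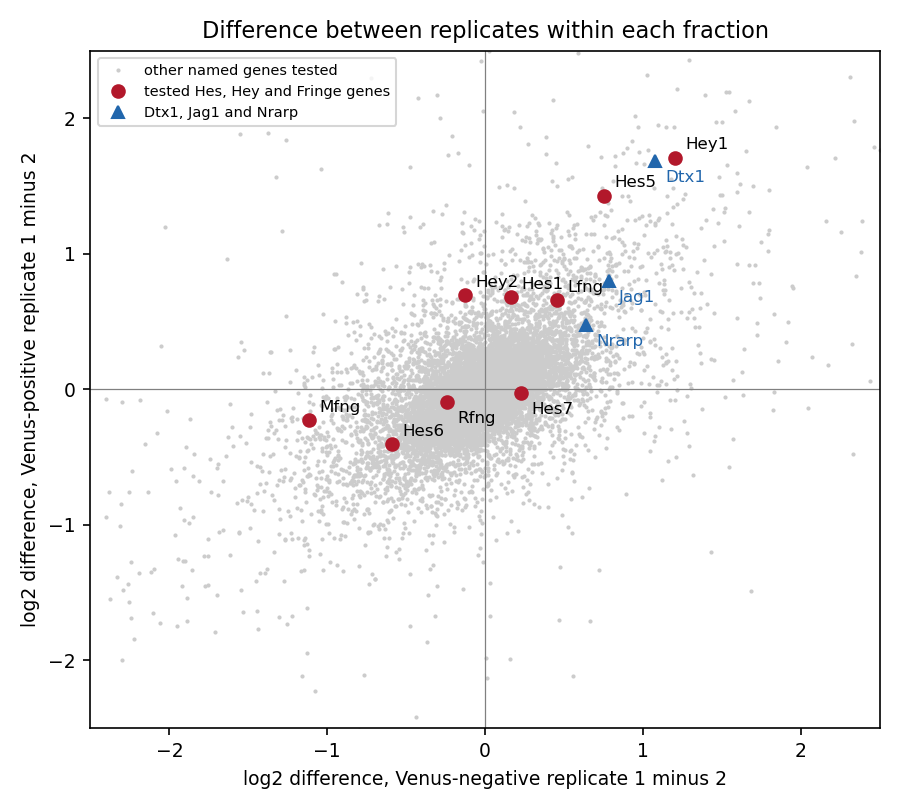
Log2 difference between replicate 1 and replicate 2 in Venus-negative (horizontal axis) and Venus-positive cells (vertical axis), with the 9 tested genes in red, Dtx1, Jag1 and Nrarp in blue and other named genes in grey; 48 of the 13925 genes lie outside the axes. Hey1 and Hes5 lie far to the upper right, near Dtx1, and Mfng and Hes6 to the left.

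In 7 of the 9 tested genes the replicates differed in the same direction in both fractions. They did so in 70.2% of named genes, so this count is not read as a trait of the members. Replicate 1 was the higher in both for Hes1, Hes5, Hey1 and Lfng. In Hey1, a single member, replicate 1 was at least 2-fold above replicate 2 in both fractions, which held for 0.682% of named genes. Among 61 other Notch pathway and clock genes tested, replicate 1 was the higher in both fractions, by any amount, in 24. The share of all named genes was not computed for that direction, so neither this count nor that of the members is read further. The 2-fold criterion was met by 1 of the 61. This was Dtx1, a cytoplasmic Notch regulator that is also a Notch target, with a normalised signal of 1.43 and 0.676 in Venus-negative and 0.841 and 0.261 in Venus-positive cells. Nrarp, a Notch-induced inhibitor of the pathway, was at 4.22 and 2.71 against 4.30 and 3.10, with replicate 1 the higher in each fraction. Jag1, a Notch ligand, was at 2.56 and 1.49 against 4.87 and 2.80. The pathway did not share a single pattern. In Dll4 the replicates ran opposite ways in the fractions, at 0.675 and 1.06 against 1.79 and 0.969. Dtx1, Nrarp and Dll4 were named here after their values were seen, and the comparison of replicates was also added then. The cause of the replicate differences was not tested, and replicate number, slide row and any difference between cultures cannot be told apart.

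Closest to Hey1 over the 4 arrays, by the root mean square distance of mean-centred log2 values among genes well above background on all arrays, were Crxos (0.136), Rbfox1 (0.163) and Fkbp6 (0.163), a search added after the values were seen. Closest to Mfng were Apln, the ligand of the apelin receptor (0.0506), Pde2a, a phosphodiesterase (0.0524), and Tspan15, a tetraspanin (0.0764), with log2 changes of 1.34, 1.37 and 1.25. Closest to Hey2 were Unc45b, a myosin chaperone (0.0661), Rin3 (0.0720) and Asic2, an ion channel subunit (0.0727). With only 4 arrays and 13227 genes to search, such distances describe these arrays and no more.

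Promoter sequence from RefSeq (build GRCm38.p6, from 250 bases before to 50 after the annotated start) was at hand for 6 of the 10 genes, with 7 promoters, since Hes6 has more than one. They were searched on both strands for TGGGAA, the core of the RBPJ site. Hes5, Hey2 and Lfng held 2 matches each, Hes7 held 1, and Hes6 and Rfng held 0. Over 32851 promoters of this length, 25.6% held at least 1 match and 3.79% at least 2. The 3 promoters with a pair of matches are shown. Replicates differed alike in both fractions for Hes5 and Lfng, but not for Hey2. They also differed alike for Hes6 and Rfng, which held 0 matches, and for Hey1, which had no promoter at hand. A link between matches and replicate differences was not tested. Capitals mark TGGGAA or its reverse complement TTCCCA. Positions follow the sequence of the gene's strand, with the start site as 0.
Hes5 promoter (chr4:154960673-154960972, + strand): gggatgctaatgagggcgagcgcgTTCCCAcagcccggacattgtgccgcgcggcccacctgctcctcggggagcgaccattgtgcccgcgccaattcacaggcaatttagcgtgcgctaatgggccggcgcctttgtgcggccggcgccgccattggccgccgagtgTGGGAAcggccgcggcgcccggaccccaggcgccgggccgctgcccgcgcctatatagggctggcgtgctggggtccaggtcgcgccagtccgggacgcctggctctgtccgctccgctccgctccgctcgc
Lfng promoter (chr5:140607091-140607390, + strand): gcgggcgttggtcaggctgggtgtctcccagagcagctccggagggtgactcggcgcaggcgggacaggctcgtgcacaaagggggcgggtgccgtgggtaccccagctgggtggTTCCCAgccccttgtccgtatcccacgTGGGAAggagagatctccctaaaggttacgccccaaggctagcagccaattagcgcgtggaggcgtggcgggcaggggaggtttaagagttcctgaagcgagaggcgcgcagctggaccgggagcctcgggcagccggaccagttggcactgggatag
Hey2 promoter (chr10:30842734-30843033, - strand): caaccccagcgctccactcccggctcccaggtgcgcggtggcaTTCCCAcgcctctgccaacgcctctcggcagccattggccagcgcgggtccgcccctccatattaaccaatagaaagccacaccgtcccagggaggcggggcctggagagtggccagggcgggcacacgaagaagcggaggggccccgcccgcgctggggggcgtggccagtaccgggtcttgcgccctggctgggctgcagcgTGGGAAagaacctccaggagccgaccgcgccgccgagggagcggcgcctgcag
The matches begin at -226 and -82 in Hes5, at -135 and -108 in Lfng and at -207 and -3 in Hey2. In each promoter the first reads TTCCCA and the second TGGGAA, so the pair faces opposite ways. The sites that Hes and Hey proteins themselves bind were searched in the same windows: the N-box CACNAG, found in 42.5% of all promoters, and the class C site CACGNG, found in 27.5%. Lfng held 1 N-box and 3 class C sites. One of these class C sites begins at -112 and shares 2 bases with the RBPJ match at -108, and another has the same letters as the N-box. Hes5 and Hey2 held 0 matches to either motif. A match is a description of letters and no evidence that a protein binds there.

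The rest of the Notch pathway gave the setting in which these genes were measured. Of 10 receptors and ligands tested, 2 were called lower and 0 higher, against 1.85% and 0.984% of named genes, and their median log2 change was -0.05. Dll3, a ligand-like inhibitor of Notch in the presomitic mesoderm, had the largest change: 5.23 and 5.71 in Venus-negative against 0.451 and 0.294 in Venus-positive cells (log2 change -3.91 ± 0.25 SE, adjusted p = 0.0342 in limma). A second Dll3 probe gave -3.64 ± 0.24. Notch3, a receptor of mural cells, fell from 10.4 and 10.8 to 5.50 and 5.42 (-0.96 ± 0.10 SE, adjusted p = 0.0442 in limma). Both fractions of each gene stood clearly apart.

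The other receptors and ligands did not pass in this fit. With the replicate number as a block, Dll1 (adjusted p = 0.0429 in limma) and Jag1 (adjusted p = 0.0497, SE 0.08) passed, although the labels do not pair the arrays. Notch4, Dll1 and Dlk1 also passed with normexp and with a signal-dependent variance prior, and Dll1 with median centring. Notch4, the receptor of endothelium, was at 1.55 and 1.57 in Venus-negative and 3.38 and 2.68 in Venus-positive cells (0.95 ± 0.15 SE, adjusted p = 0.0774 in limma). Dll1, the Delta ligand of presomitic mesoderm, was at 1.53 and 1.22 against 0.501 and 0.362 (-1.68 ± 0.23 SE, adjusted p = 0.0618 in limma). Each of these 2 genes had fractions that did not overlap, as did Notch2, Jag1, Jag2, Dlk1 and 61.7% of named genes. The arterial ligand Dll4 had a log2 change of 0.64 ± 0.41 SE, Jag1 of 0.92 ± 0.42 and Jag2 of 0.83 ± 0.23. Dlk1, an atypical ligand that lacks the receptor-binding DSL domain, stood at -0.95 ± 0.12. Notch1 and Notch2, the most widely expressed receptors, had the smallest values, at 0.19 ± 0.14 and -0.29 ± 0.17.

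**Figure D4:**
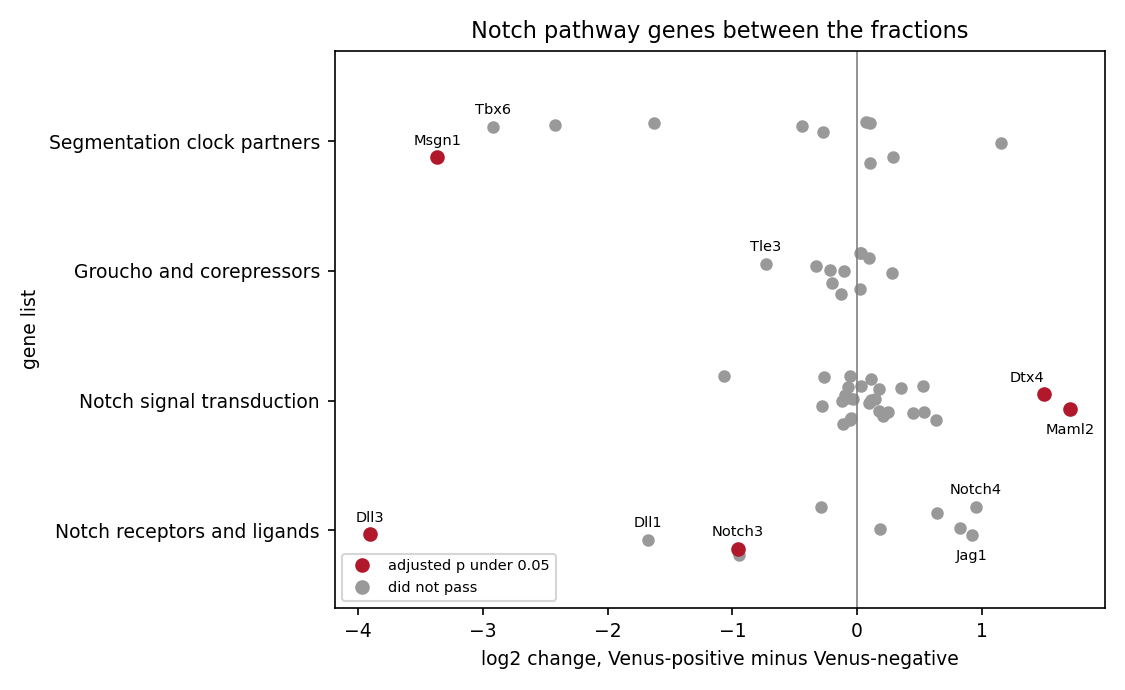
Log2 change (Venus-positive minus Venus-negative) of the tested genes in 4 lists of Notch pathway and segmentation clock genes; each point is a gene, red where the adjusted p was under 0.05 in limma, and the vertical position within a list only separates the points. Dll3, Notch3 and Msgn1 are called lower and Maml2 and Dtx4 higher.

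Of 28 signal transduction genes tested, 2 were called higher and 0 lower, against 0.984% and 1.85% of named genes. Their median log2 change was 0.10. Maml2, a coactivator of the Notch and RBPJ complex, rose from 0.133 and 0.130 to 0.416 and 0.439 (log2 change 1.70 ± 0.10 SE, adjusted p = 0.0342 in limma), while a second Maml2 probe gave 0.60 ± 0.43 (adjusted p = 0.468 in limma at the level of probes). Dtx4, a ubiquitin ligase that acts on Notch trafficking, rose from 0.729 and 0.826 to 2.11 and 2.28 (1.496 ± 0.12 SE, adjusted p = 0.0367 in limma). On the other probe of Maml2 the change did not pass, and with the mean of its probes the Maml2 call was lost (log2 change 1.15, adjusted p = 0.106 in limma).

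The corepressors that Hes and Hey proteins recruit were called in neither direction in this fit. Of 11 tested, 0 were higher and 0 lower in limma, against 0.984% and 1.85% of named genes, and the median log2 change was -0.11. At an unadjusted p under 0.05, 1 of them passed, against 26% of named genes. That gene was Tle3, a Groucho homologue, at 29.7 and 30.6 against 20.0 and 16.5 (-0.73 ± 0.14 SE, adjusted p = 0.0961 in limma, or 0.0346 with the signal-dependent prior, under which it was called lower), followed in size by Tle6 at -0.33 ± 0.16. Of 5 other genes of the bHLH-Orange class, Bhlhe40 alone was tested, at 0.13 ± 0.29. Hes2, Hes3, Helt and Bhlhe41 did not pass the filter on dim probes.

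Among 11 tested partners of the segmentation clock, 1 was called lower and 0 higher, against 1.85% and 0.984% of named genes. Their median log2 change was -0.27. Msgn1, a transcription factor that drives presomitic differentiation, was at 0.734 and 0.772 in Venus-negative and 0.0917 and 0.0580 in Venus-positive cells (-3.37 ± 0.26 SE, adjusted p = 0.0354 in limma). Tbx6, which activates clock targets together with Notch, was at 11.7 and 9.81 against 2.09 and 0.956 (-2.92 ± 0.43 SE, adjusted p = 0.0687 in limma; it passed with normexp, median centring and the signal-dependent prior). The list did not move one way: 5 of the 11 were on the higher side and 6 on the lower. Mesp2, on the lower side, was well above background in Venus-negative cells only and entered the test through them. Fractions did not overlap for 7 of the 11, against 61.7% of named genes. Among those 7 was Efna1, an ephrin ligand, on the higher side at 4.27 and 4.48 against 11.7 and 8.14 (log2 change 1.16, adjusted p = 0.0914 in limma), named after its values were seen. The calls of Dll3, Notch3, Maml2, Dtx4 and Msgn1 needed all 4 arrays, whereas their sizes did not: with any single array left out, whichever of the 4 it was, 0 of the 61 genes passed in limma, and 15 to 18 had an unadjusted p under 0.05 against 19 with all arrays. The log2 changes then ranged from -4.22 to -3.60 for Dll3, -0.99 to -0.93 for Notch3, 1.67 to 1.74 for Maml2, 1.41 to 1.59 for Dtx4 and -3.70 to -3.04 for Msgn1. With all arrays and normexp they were -3.37 for Dll3, -0.90 for Notch3, 1.05 for Maml2, 1.33 for Dtx4 and -1.93 for Msgn1. The sizes for Maml2 and Msgn1 thus depended on the background correction.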

How the data were processed

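Per the labels' protocols, RNA was labelled with Cy3 (Agilent low-input kit). The 4 scanner tables deposited by the authors give an intensity and detection flags for each spot. Per the file headers they came from Agilent Feature Extraction 10.10.1.1; the processed signal was used, and its correction steps are not given in the sources used here. The deposited value table holds intensity values equal to the processed signal times 1 constant per array, with medians of 38.1 to 42.3; how the constants were set is not given in the sources used here. From 62976 spots, control and outlier spots were left out and the spots of a probe averaged. The log2 processed signal was centred on the 75th percentile. A probe was kept if both arrays of either fraction had it well above background (27899 probes). Accessions were matched to RefSeq symbols (GRCm38.p6), which named 27235 of the 55681 probes. The brightest probe represented a gene, giving 23547 features. limma 3.58.1 in R 4.3.3 (the data.table package, version 1.17.8) compared the fractions with Benjamini-Hochberg adjustment over all features, with 2 residual and 1.8 prior degrees of freedom; each probe was also fitted as its own feature. The functions were tested on simulated data. With 2 arrays per fraction, precision is low. Named genes were all members, every tested receptor and ligand, the called and the 2 most changed genes of each other pathway list, and the nearest genes in pattern; exceptions are marked. The members and lists were chosen with earlier results of these data known.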

Additional observations from a re-analysis of the deposited data

How the results depend on the processing

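Of the members (9 tested, 10 with all probes kept), 0 were called in every alternative run: normexp, median centring, quantile normalization, all probes kept, only probes detected on all arrays, a signal-dependent variance prior, the authors' value table, the mean of a gene's probes, the replicate block and each array left out. Under normexp on the median spot signal, chosen after the data were seen because the files used here hold no mean signal (the planned version was not run), the log2 change of Hey1 was 0.0297. Under median centring it was 0.0685 and that of Rfng 0.0311; this centring moved the median change of all named genes by 0.07. Leaving out 1 array gave ranges of -0.066 to 0.62 for Hes1, -0.97 to 0.46 for Hes5 and -0.035 to 0.19 for Hes7. The ranges were -0.86 to 0.85 for Hey1, -0.16 to 0.083 for Rfng and -0.22 to 0.49 for Bhlhe40, which is not a member. The direction of these 6 thus depends on single arrays, whereas Mfng (0.79 to 1.90), Hey2 (0.64 to 1.33), Lfng (-1.28 to -0.62) and Hes6 (-0.72 to -0.13) kept theirs. The median over the members ranged from -0.066 to 0.46. Of the Notch pathway and clock genes, 5 were called in the reported fit, 13 with normexp, 14 with the signal-dependent prior, 0 with all probes kept and 0 to 0 without 1 array. Over all named genes the counts were 394, then 1029, 1247, 0 and 0 to 0. In that order 3994, 4315 and 3519 genes had an unadjusted p under 0.05 in limma with normexp, the prior and all probes kept, and 2217 to 2847 without 1 array. Of the called genes 65.2% were lower in the reported fit, 53.3% with median centring and 52.3% with normexp. The replicate numbers do not pair the samples by their labels. Deviations of same-numbered arrays correlated at 0.53 across named genes, which are not independent. With the replicate block 8 pathway genes and 711 of all named genes were called, with Dll1, Jag1 and Mesp2 added. Mesp2 entered the test only through Venus-negative cells, where it was high. With that block the Lfng adjusted p was 0.0549 in limma, the lowest of any member in any alternative. Signals near background limit what can be said of Heyl and Hey2, and also of Lfng, whose log2 change was -0.61 with normexp.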
